A study of Mus musculus with 8 samples.

Results

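Interferon-stimulated genes (ISGs) are the genes that cells switch on after sensing interferon, and 42 of them were followed here in mouse liver. They were chosen by name from textbook interferon biology, with earlier results of these data known. By their symbols, 41 were found in the table of gene counts, out of 33212 genes in all. Each of the 41 had enough counts to be tested, among 15291 tested genes. The remaining one, Ifit3b, was not listed under that symbol and is described separately.

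Interferons are secreted proteins that warn cells of viral nucleic acid. Type I and type III interferons signal through receptor-bound JAK kinases to a complex that includes STAT2 and IRF9 and binds the interferon-stimulated response element in promoters, while type II interferon acts mainly at gamma-activated sites. The induced proteins sense foreign RNA, block viral translation and budding, degrade RNA, and modify other proteins with ISG15. In liver, hepatocytes, Kupffer cells and other resident cells all carry interferon receptors, and this response is known from viral hepatitis and from inflammation in fatty liver.

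The libraries came from the livers of 8 male mice on the C57BL/6 background, 4 per genotype. The Nnmt KO mice were Alb-Cre::Nnmt flox/flox animals, in which the albumin promoter drives Cre in hepatocytes, so that other liver cells keep Nnmt (nicotinamide N-methyltransferase). The controls are called WT in the sample labels and Nnmt flox/flox in the study's text, and whether they carried Cre is not stated. All mice, controls included, received for 8 weeks the liver-injuring MCD diet, deficient in both choline and methionine. No mice on a normal diet were part of this comparison, and the age of the mice was not given in the sources used here. The study asked how loss of hepatocyte Nnmt affects diet-induced liver damage, and the comparison below asks whether the interferon response differed with it. Since the columns carry no mouse number, letters a to d only name the libraries of a genotype in the order of the table. Values are CPM (counts brought to one fixed total per library), scaled between libraries by the trimmed mean of M-values (TMM).

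Total counts ran from 75020072 to 87934362 per library. Nnmt itself was at 31.8, 44.8, 68.9 and 83.0 CPM in the KO libraries, in the order a to d, and at 112, 224, 134 and 84.9 CPM in the control libraries. The genotypes did not overlap, although KO library d lay just under control library d (log2 fold change −1.28 ± 0.33 SE; edgeR unadjusted p = 0.00256, adjusted p = 0.123, DESeq2 adjusted p = 0.00467). Which exons were deleted was not given in the sources used here. KO library a stood apart from the other KO libraries in its TMM factor (1.21 against 0.952 to 0.977) and in its summed hepatocyte markers, and results that rest on it are given with and without it.

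Several ISG promoters carry the letters that the complex with STAT2 and IRF9 is known to read. RefSeq promoter windows (GRCm38.p6, 250 bases before to 50 bases after a gene's start) were matched for 31 of the 42 listed genes, Ifit3b included. The motif of GAAA, any 2 bases and GAAA again, searched on both strands, occurred in 19 of these 31 genes (61.3%), against 3.99% of 27025 genes and 3.44% of 32851 windows. The shorter motif TTCNNNGAA, which reads the same on both strands and represents the gamma-activated site, occurred in 9 of 31 (29.0%), against 9.55% of genes. Neither motif contains the other, though their matches can share bases. In 16 of the genes a match of this paired GAAA motif began before the start of the gene. The sites of 10 of them are shown because they carry this shared sequence in genes from each main family, each on the gene's own strand from 5′ to 3′, with the matches in capitals. A match on the opposite strand reads TTTC, any 2 bases, TTTC.
Isg15 (chr4:156200860-156200911, minus strand): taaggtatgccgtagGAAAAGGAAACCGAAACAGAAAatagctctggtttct
Bst2 (chr8:71537572-71537617, minus strand): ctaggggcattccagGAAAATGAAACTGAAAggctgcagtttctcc
Oas1a (chr5:120907526-120907560, minus strand): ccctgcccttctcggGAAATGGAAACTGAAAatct
Oas1g (chr5:120887614-120887646, minus strand): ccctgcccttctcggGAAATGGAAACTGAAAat
Ifit1 (chr19:34640770-34640828, plus strand): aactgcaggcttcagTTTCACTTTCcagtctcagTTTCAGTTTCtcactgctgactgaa
Ifit3 (chr19:34583358-34583397, plus strand): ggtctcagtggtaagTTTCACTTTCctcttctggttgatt
Gbp2 (chr3:142620589-142620628, plus strand): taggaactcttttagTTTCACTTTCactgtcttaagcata
Gbp7 (chr3:142530268-142530307, plus strand): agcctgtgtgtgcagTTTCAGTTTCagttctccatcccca
Igtp (chr11:58199507-58199546, plus strand): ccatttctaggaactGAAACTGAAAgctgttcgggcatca
Irgm2 (chr11:58214898-58214937, plus strand): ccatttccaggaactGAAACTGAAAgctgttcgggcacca

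The Isg15 site holds 3 overlapping matches, and the Ifit1 stretch holds 2 separate ones. The Oas1a and Oas1g stretches were identical over 33 bases, the Ifit3 site recurred without a difference over 40 bases in Ifit3b (chr19:34607754-34607793), and the Igtp and Irgm2 sites differed at 2 of 40 bases. These close copies extend into the transcripts. The longest protein-coding transcripts aligned with 98.0% identity for Ifit3 and Ifit3b, 97.5% for Oas1a and Oas1g, 83.1% over the aligned stretch for Igtp and Irgm2, and 78.8% for Mx1 and Mx2. Igtp and Irgm2 also overlap on chromosome 11. As it is not stated how reads shared by such genes were assigned, the split of counts within these pairs is uncertain.

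All of these genes were expressed in the MCD-fed liver, at levels that spanned more than 2 orders of magnitude. Per kilobase of exon, the control mean was highest for Bst2 (tetherin, which holds budding virions at the cell surface) at 87.6 CPM per kb, followed by Ifi27, a mitochondrial protein, at 40.2 and the ubiquitin-like modifier Isg15 at 26.0 CPM per kb. Oasl1 (18.5) and Trim25 (17.6) came next and differed from each other by less than their spread. The lowest levels per kilobase were those of Ifi44 (0.260), Oas2 (0.375), Mx1 (0.378) and Oas3 (0.392). In CPM, the control means of the last named were as low as 1.43 ± 0.610 for Mx1 and 1.59 ± 0.129 for Ifi44 (SD, n = 4).

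**Figure D1:**
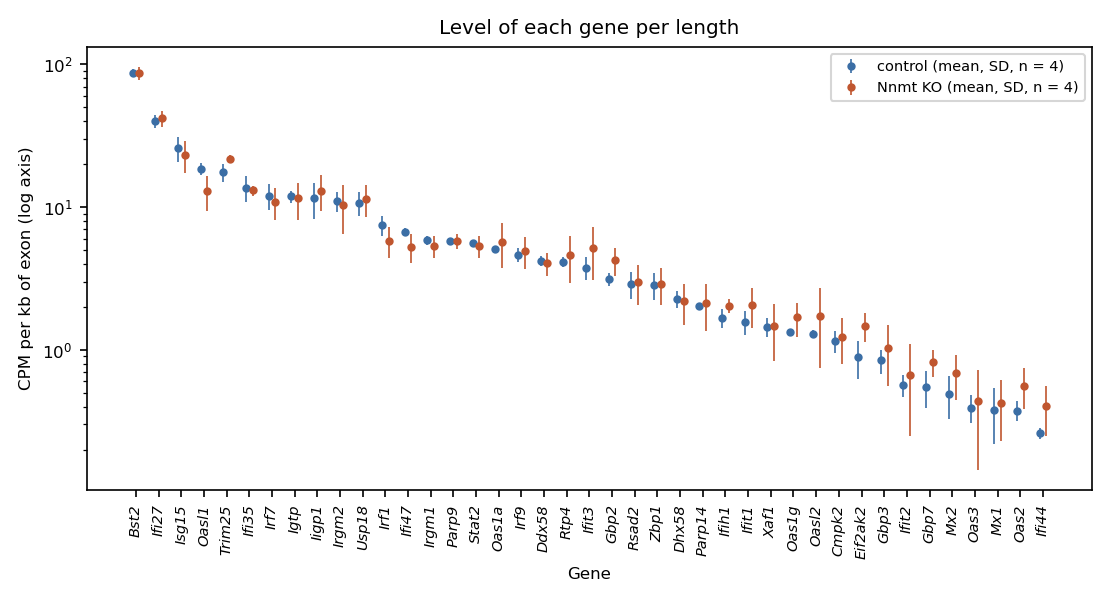
Level of each of the 41 ISGs in CPM per kilobase of exon (log axis), as the mean and SD of 4 libraries per genotype, ordered by the control mean. Bst2 was highest in control at 87.6 and Ifi44 lowest at 0.260 CPM per kb, and the error bars are wider in Nnmt KO for most genes.

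No ISG differed between genotypes after adjustment over all genes. The smallest adjusted p was 0.211 by edgeR's quasi-likelihood test and 0.0651 by DESeq2's Wald test, both for Eif2ak2, while 0.32% of all tested genes passed an adjusted p of 0.05 by edgeR and 3.32% by DESeq2. At an unadjusted p under 0.05, 8 of 41 ISGs were counted by each tool, beside a background of 12.6% of all tested genes by edgeR and 14.2% by DESeq2. Of these 8, Oas2, Eif2ak2, Trim25, Gbp2, Gbp7 and Ifi44 were higher in Nnmt KO (6, background 5.45%), and Oasl1 and Ifi47 were lower (2, background 7.13%). Only Oas2 had libraries that did not overlap between genotypes, and it was higher in KO. Over all tested genes 8.16% did not overlap, 3.34% higher and 4.81% lower. The log2 fold change was above 0 for 27 of 41 ISGs, with a median of 0.09, beside 52.3% of all tested genes and a median of 0.02. No ISG differed by 2-fold or more, a size reached by 3.45% of all tested genes. Without KO library a the median was −0.10 and 12 of 41 were above 0, so the direction of the group as a whole rested on that library.

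**Figure D2:**
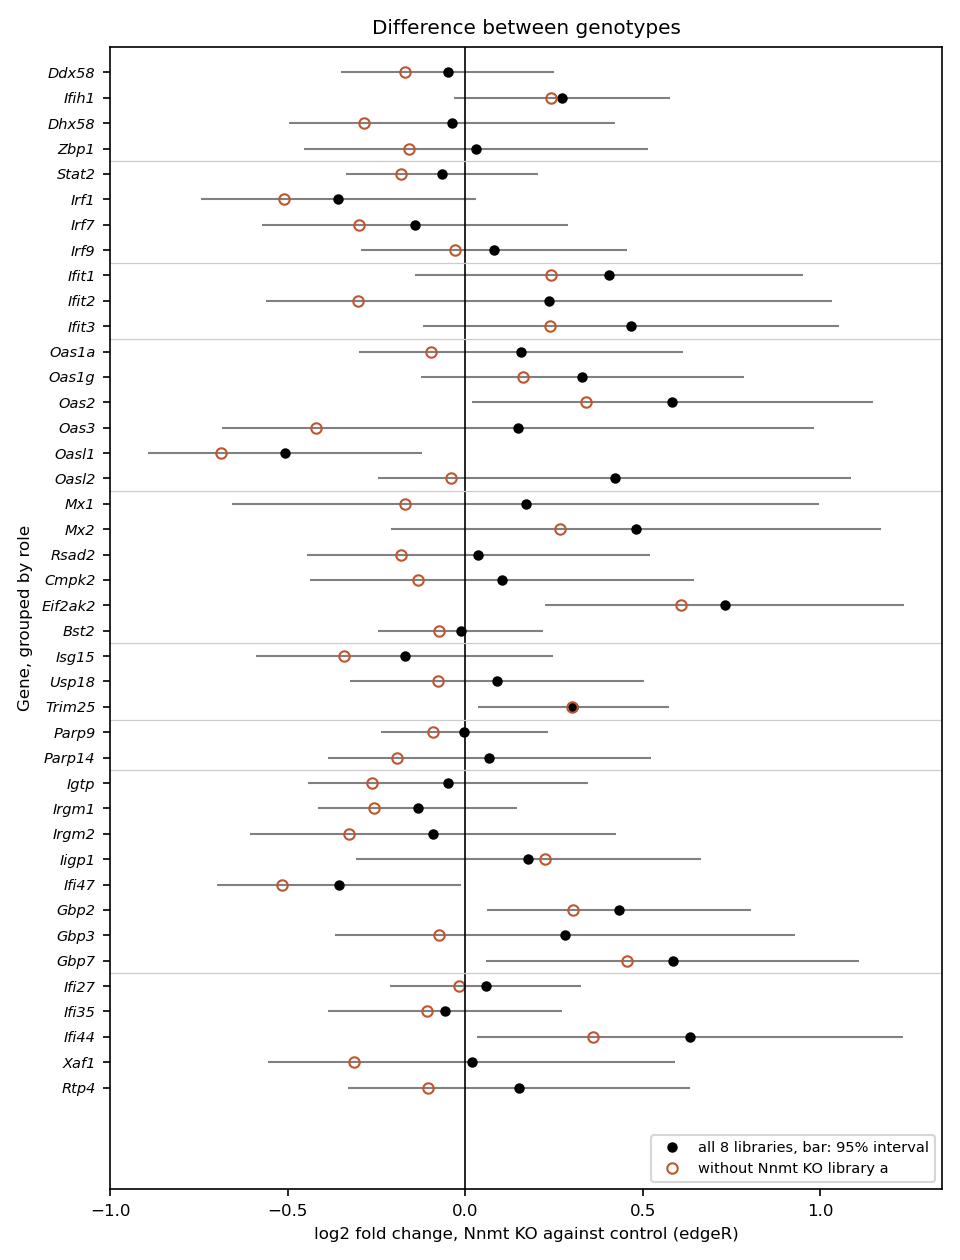
The log2 fold change of each ISG in Nnmt KO against control by edgeR, with all 8 libraries (filled points, bars show the 95% interval) and without Nnmt KO library a (open circles), grouped by role. Intervals exclude 0 for 8 genes, and the open circles lie to the left of the filled points for nearly all genes, so that the median moves from 0.09 to −0.10.

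Among the RNA and DNA sensors, RIG-I (Ddx58) and MDA5 (Ifih1), which recognise viral RNA and signal through MAVS, stood at moderate levels. Ddx58 was 35.3, 30.0, 25.6 and 23.1 CPM in KO libraries a to d and 31.3, 30.0, 26.1 and 30.6 CPM in control libraries a to d. The KO libraries lay on both sides of the controls, with means of 28.5 ± 5.34 and 29.5 ± 2.34 CPM (SD, n = 4) and a log2 fold change of −0.05 (95% interval −0.35 to 0.25). Ifih1 was 17.7, 15.8, 14.3 and 18.5 CPM in KO and 10.9, 14.2, 15.7 and 13.9 CPM in control. All KO libraries but c were above every control library, and the log2 fold change was 0.27 ± 0.14 SE (edgeR unadjusted p = 0.0734, adjusted p = 0.443). The other sensors, Dhx58 (LGP2, a regulator of RIG-I and MDA5) and Zbp1, which binds Z-form nucleic acid, had log2 fold changes of −0.04 and 0.03. None of the 4 sensors had an unadjusted p under 0.05.

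Of the 4 transcription factors and transducers of the group, 3 had a log2 fold change below 0 and none passed the unadjusted threshold. Over all tested genes, 52.3% had a log2 fold change above 0. Stat2 and Irf7, 2 of these 3, changed sign in at least 1 fit without 1 library. Irf1, a factor induced strongly by type II interferon, was 30.1, 25.5, 18.4 and 18.7 CPM in KO libraries a to d and 35.9, 25.1, 26.8 and 31.1 CPM in control. KO libraries c and d lay below all controls, while a and b lay among them (log2 fold change −0.36 ± 0.18 SE; edgeR unadjusted p = 0.0674, adjusted p = 0.430). This became −0.51 when KO library a was left out (edgeR unadjusted p = 0.00937, adjusted p = 0.196). Irf7, the factor that amplifies type I interferon production, was 53.8, 42.9, 39.5 and 28.0 CPM in KO and 47.4, 57.7, 38.8 and 37.2 CPM in control, with overlapping genotypes and a log2 fold change of −0.14 (95% interval −0.57 to 0.29). Irf7 lies at chr7:141262706-141266481, where genes were lower as a group in Nnmt KO. The median log2 fold change of the 241 tested neighbours between 125 and 150 Mb of chromosome 7 was −0.30, and 73.0% of them had a lower value than Irf7. Stat2 and Irf9, partners in the response-element complex, had log2 fold changes of −0.07 and 0.08.

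The IFIT proteins bind viral RNA and block its translation. All 3 IFIT genes had a higher mean in Nnmt KO, with log2 fold changes of 0.24 to 0.47 and none below an unadjusted p of 0.05. When KO library a was left out, Ifit1 and Ifit3 were both at 0.24 and Ifit2 was at −0.30. Ifit1, whose promoter holds 2 of the matches shown, was 7.27, 6.33, 3.20 and 5.22 CPM in KO libraries a to d and 3.06, 4.29, 4.92 and 4.35 CPM in control. KO libraries a, b and d were above all controls, but c was above control a alone (log2 fold change 0.41 ± 0.25 SE; edgeR unadjusted p = 0.131, adjusted p = 0.533). Ifit3 was 13.0, 11.3, 5.31 and 6.72 CPM in KO and 6.48, 8.34, 5.61 and 5.90 CPM in control. Libraries a and b were again the highest, and c was the lowest of all 8 (log2 fold change 0.47 ± 0.27 SE; edgeR unadjusted p = 0.107, adjusted p = 0.501). Ifit2 reached 5.06 CPM in KO library a and 1.39 to 2.14 CPM in the other KO libraries, against 1.82 to 2.75 CPM in control. Its log2 fold change with all libraries was 0.24. By its Ensembl identifier ENSMUSG00000062488, the near-copy Ifit3b was present in the table under another symbol (I830012O16Rik), with 354, 261, 125 and 147 counts in the KO libraries (a to d) against 153, 141, 140 and 137 counts in the controls. It followed the order of Ifit3 among the KO libraries (log2 fold change 0.62 ± 0.29 SE; edgeR unadjusted p = 0.0553, adjusted p = 0.407). Ifit3b is one of the 15291 tested genes but is outside the 41 ISGs matched by symbol.

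The OAS enzymes make 2-5A, the second messenger that activates RNase L, whereas the OAS-like protein OASL1 lacks this activity. Of the 6 genes, 5 had a log2 fold change above 0 and Oasl1 had one below 0, with a median of 0.24. When KO library a was left out, 2 of 6 were above 0 and the median was −0.07, as Oas3 went from 0.15 to −0.42 and Oas1a from 0.16 to −0.10. Oas2 (chr5:120730333-120749853) was 3.65, 2.40, 1.85 and 2.09 CPM in KO libraries a to d and 1.27, 1.81, 1.80 and 1.81 CPM in control. Every KO library was above every control library, but KO library c and the highest control differed by only a few percent, and control a was far below the other controls. The means were 2.50 ± 0.801 and 1.67 ± 0.269 CPM (SD, n = 4), with a log2 fold change of 0.58 ± 0.26 SE (edgeR unadjusted p = 0.0440, adjusted p = 0.381). It was 0.34 without KO library a (edgeR unadjusted p = 0.170, adjusted p = 0.572) and 0.49 without control library a (edgeR unadjusted p = 0.103, adjusted p = 0.715).

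Oasl1 (chr5:114923240-114937915), which is known to restrain IRF7 translation, went the other way. It was 45.9, 34.6, 32.2 and 23.3 CPM in KO libraries a to d and 54.3, 48.9, 46.4 and 43.8 CPM in control. KO libraries b, c and d were below all controls, and library a lay between the lowest pair of control libraries. The means were 34.0 ± 9.30 and 48.4 ± 4.46 CPM (SD, n = 4), a log2 fold change of −0.51 ± 0.18 SE (edgeR unadjusted p = 0.0144, adjusted p = 0.253). Leaving out KO library a gave −0.69 with no overlap between genotypes (edgeR unadjusted p = 0.000679, adjusted p = 0.0578). Its immediate neighbour Oasl2 had a log2 fold change of 0.42 with all libraries and −0.04 without library a. The cluster of Oas2, Oas3, Oas1g and Oas1a, within chr5:120730333-120907521, had 4 of 4 values above 0 with all libraries, from 0.15 to 0.58. Oas3 in library a was 2.93 times the mean of the other KO libraries, the highest such ratio of the 41 genes.

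Of the other antiviral effectors, Eif2ak2 had the smallest p of all ISGs. It encodes PKR, the kinase that is activated by double-stranded RNA and phosphorylates eIF2α, one of the entry points to the integrated stress response. Eif2ak2 (chr17:78852564-78882573) was 9.35, 7.33, 5.29 and 8.13 CPM in KO libraries a to d and 4.06, 3.45, 4.14 and 6.49 CPM in control. KO libraries a, b and d were above all controls, and c was above all controls but d. The means were 7.53 ± 1.71 and 4.53 ± 1.34 CPM (SD, n = 4), a log2 fold change of 0.73 ± 0.23 SE with a 95% interval from 0.22 to 1.24 (edgeR unadjusted p = 0.00874, adjusted p = 0.211). Its unadjusted p stayed between 0.00102 and 0.0267 whichever library was left out, and for the other 7 genes it exceeded 0.05 in at least 1 such fit.

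The dynamin-like GTPase Mx2 was 3.49, 2.87, 1.72 and 1.79 CPM in KO libraries a to d and 2.40, 2.09, 1.49 and 1.11 CPM in control. The genotypes overlapped (log2 fold change 0.48 ± 0.31 SE; edgeR unadjusted p = 0.153, adjusted p = 0.559). Bst2, the most abundant ISG per length, was 88.0, 82.1, 71.0 and 72.6 CPM in KO and 81.4, 84.4, 74.4 and 76.2 CPM in control. Its means of 78.4 ± 8.04 and 79.1 ± 4.60 CPM (SD, n = 4) differed by less than the spread, and the 95% interval of its log2 fold change, −0.25 to 0.22, leaves room only for differences well under 2-fold. Mx1, Rsad2 (viperin, a radical enzyme that makes a chain-terminating nucleotide) and its neighbour Cmpk2, a mitochondrial nucleotide kinase, had log2 fold changes of 0.17, 0.04 and 0.10, with unadjusted p from 0.659 to 0.868 in edgeR's quasi-likelihood test. All 6 genes of this group were highest in KO library a.

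ISG15 is attached to other proteins after interferon, USP18 removes it and dampens receptor signalling, and TRIM25 is the ubiquitin ligase that assists RIG-I. Trim25 (chr11:88999376-89020293) was 126, 132, 129.9 and 114 CPM in KO libraries a to d and 89.6, 117, 88.2 and 111 CPM in control. KO library d overlapped control library b, and the other KO libraries were above all controls. The means were 125 ± 8.08 and 102 ± 14.7 CPM (SD, n = 4), a log2 fold change of 0.30 ± 0.12 SE (edgeR unadjusted p = 0.0303, adjusted p = 0.330). Its level in library a was 1.01 times the mean of the other KO libraries, and its log2 fold change without that library was 0.30. Isg15, with the triple match in its promoter, was 23.3, 17.8, 13.1 and 15.7 CPM in KO and 21.1, 24.4, 17.8 and 15.5 CPM in control. The genotypes overlapped throughout, with a log2 fold change of −0.17 (95% interval −0.59 to 0.25). Usp18 had a log2 fold change of 0.09.

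The ADP-ribosyltransferases Parp9 and Parp14, neighbours on chromosome 16, had close means in both genotypes. Parp9 was 33.2, 26.8, 25.3 and 27.6 CPM in KO libraries a to d and 29.1, 28.4, 28.9 and 26.8 CPM in control, with a log2 fold change of −0.0020 (95% interval −0.24 to 0.23). Parp14 was 29.4, 20.5, 14.8 and 14.0 CPM in KO and 18.6, 17.5, 19.2 and 19.7 CPM in control. The control libraries of Parp14 lay close together, whereas the KO libraries lay above and below them, with an SD of 7.11 CPM in KO against 0.956 CPM in control. Its log2 fold change was 0.07 with all libraries and −0.19 without KO library a.

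The interferon-inducible GTPases, which attack the vacuoles of intracellular pathogens and respond mainly to type II interferon, had 4 of 8 log2 fold changes above 0. The 3 guanylate-binding proteins of this group, close together on chromosome 3, had log2 fold changes of 0.28 to 0.58. Gbp3, at 0.28, had an unadjusted p of 0.361 (edgeR, adjusted p = 0.733). Gbp2 (chr3:142620602-142638008) was 13.4, 11.3, 9.93 and 7.91 CPM in KO libraries a to d and 7.67, 8.26, 8.78 and 6.80 CPM in control. KO libraries a to c were above all controls, and d lay among them (means 10.6 ± 2.31 and 7.88 ± 0.849 CPM, SD, n = 4; log2 fold change 0.43 ± 0.17 SE; edgeR unadjusted p = 0.0262, adjusted p = 0.315). Gbp7 (chr3:142530342-142550149) was 5.80, 4.11, 3.50 and 5.08 CPM in KO and 2.24, 2.55, 4.25 and 3.28 CPM in control. Control library c overlapped the lower pair of KO libraries (means 4.62 ± 1.02 and 3.08 ± 0.894 CPM, SD, n = 4; log2 fold change 0.58 ± 0.24 SE; edgeR unadjusted p = 0.0323, adjusted p = 0.337). Without KO library a the values were −0.07 for Gbp3, 0.30 for Gbp2 and 0.46 for Gbp7, the last 2 with unadjusted p of 0.0839 and 0.0870 and adjusted p of 0.453 and 0.457 by edgeR.

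Of the 5 immunity-related GTPases, Ifi47 alone had an unadjusted p under 0.05, and 4 of the 5 log2 fold changes were below 0. Ifi47 (IRG-47; chr11:49076587-49096974) was 17.1, 12.9, 11.7 and 10.1 CPM in KO libraries a to d and 15.2, 17.7, 17.0 and 16.3 CPM in control. KO libraries b, c and d were below all controls and a was within them (means 12.9 ± 2.97 and 16.6 ± 1.04 CPM, SD, n = 4; log2 fold change −0.36 ± 0.16 SE; edgeR unadjusted p = 0.0431, adjusted p = 0.378). Its log2 fold change without KO library a was −0.52, and the genotypes then did not overlap (edgeR unadjusted p = 0.00196, adjusted p = 0.0961). Its neighbour Irgm1, a regulator of the family, had a log2 fold change of −0.13 with all libraries and −0.26 without library a (edgeR unadjusted p = 0.0381, adjusted p = 0.341). Igtp and Irgm2 were at −0.05 and −0.09. Iigp1, the most abundant gene of the group in CPM, was 68.4, 68.0, 60.1 and 107 CPM in KO and 46.2, 61.9, 91.6 and 68.6 CPM in control. It was highest in KO library d rather than a, and its log2 fold change of 0.18 had a 95% interval from −0.31 to 0.66.

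Of the remaining induced genes, Ifi44 (chr3:151730922-151749960), a cytoplasmic protein of uncertain function, was 3.73, 2.43, 1.48 and 2.23 CPM in KO libraries a to d and 1.54, 1.54, 1.50 and 1.78 CPM in control. KO library c was the lowest of all 8 and the other KO libraries were above all controls (means 2.47 ± 0.935 and 1.59 ± 0.129 CPM, SD, n = 4; log2 fold change 0.63 ± 0.27 SE; edgeR unadjusted p = 0.0406, adjusted p = 0.368). The value without KO library a was 0.36 (edgeR unadjusted p = 0.164, adjusted p = 0.567). Ifi27 was 70.6, 66.0, 54.1 and 54.8 CPM in KO and 65.8, 62.1, 53.8 and 54.1 CPM in control, with a log2 fold change of 0.06 (95% interval −0.21 to 0.33). Rtp4 was 14.6, 10.4, 6.84 and 7.43 CPM in KO and 9.96, 8.62, 8.32 and 8.45 CPM in control. As for Parp14, its KO libraries lay above and below a narrow band of controls (SD 3.54 against 0.759 CPM), and its log2 fold change was 0.15. Ifi35 and the pro-apoptotic gene Xaf1 had log2 fold changes of −0.06 and 0.02.

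**Figure D3:**
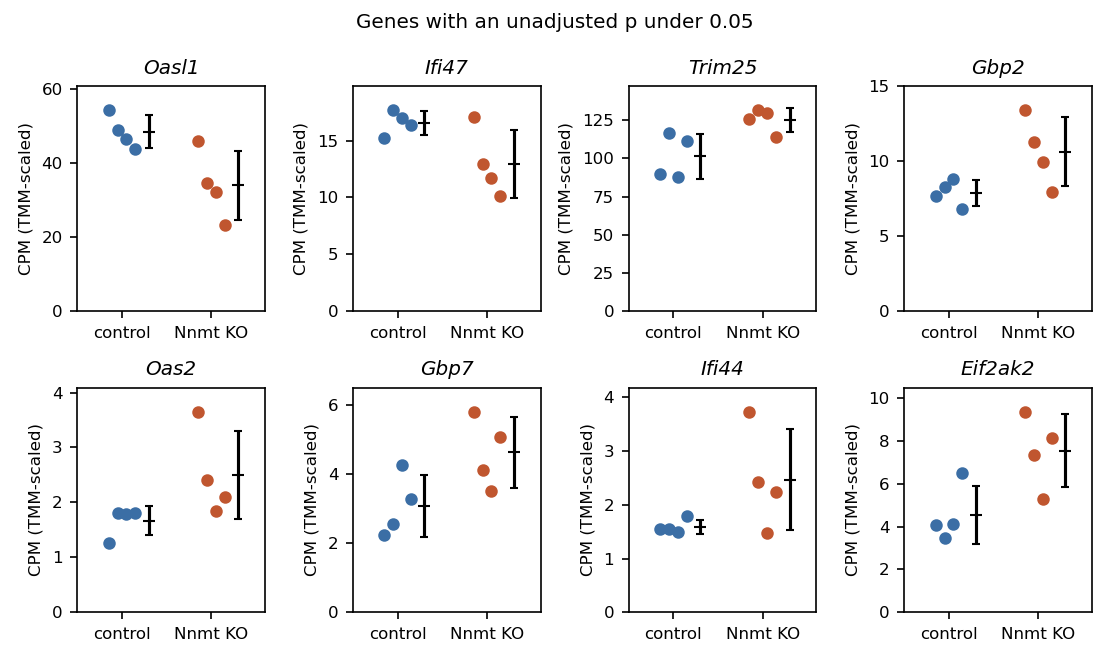
The 8 ISGs with an unadjusted p under 0.05, in TMM-scaled CPM for each library (points, in order a to d within a genotype), with the mean and SD of 4 libraries beside them and axes that start at 0. Oas2 alone has no overlap between genotypes, and the leftmost KO point, library a, is the highest KO library for every gene but Trim25.

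The ISGs varied more between the Nnmt KO mice than between the control mice. Their mean log2 CPM was 4.12, 3.70, 3.34 and 3.37 in the KO libraries, in the order a to d, but 3.52, 3.62, 3.54 and 3.48 in the controls. KO libraries a and b were above all controls, and KO libraries c and d were below them. The SD of the library means was 0.37 in KO against 0.06 in control. Without library a the KO SD was 0.20. The median SD of a single ISG on the log2 scale was 0.40 in KO and 0.22 in control, whereas over all tested genes it was 0.25 in both. These are descriptions of 4 libraries each, and the difference in spread was not tested.

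KO library a was the highest of all 8 libraries for 32 of 41 ISGs (78.0%), against 20.6% of all tested genes, and the highest KO library for 38 of 41, against 31.7%. Its level was a median of 1.50 times the mean of the other KO libraries, from 0.872 for Iigp1 to 2.93 for Oas3, and 40 of 41 ratios were above 1. Over all tested genes the median ratio was 0.984, with 47.6% above 1. At the other end, KO library d was the lowest of all 8 libraries for 16 ISGs and KO library c for 13, where they were lowest for 16.8% and 8.02% of all tested genes. Genes with and without a paired GAAA match in their promoter had similar ratios, with medians of 1.48 over 18 genes and 1.50 over 12 genes. Library a was the highest of all 8 for 16 of the 18 genes with the motif and for 6 of the 12 without it. ISGs with no matched promoter window were in neither set. The median log2 fold changes between genotypes were 0.15 and 0.05 for these 2 sets, a description over genes that are not independent.

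Leaving out KO library a changed which ISGs had an unadjusted p under 0.05. There were then 6, beside 13.3% of all tested genes. Eif2ak2 (0.61) and Trim25 (0.30) were higher, and Irf1 (−0.51), Oasl1 (−0.69), Ifi47 (−0.52) and Irgm1 (−0.26) were lower in Nnmt KO. In 4 ISGs the genotypes then did not overlap, against 13.5% of all tested genes. Oas2 was higher, and Stat2, Oasl1 and Ifi47 were lower. None passed an adjusted p of 0.05, which 0.963% of all tested genes did. Eif2ak2 and Trim25 above control, and Oasl1 and Ifi47 below it, were thus common to both fits at the unadjusted threshold. The fits share all libraries but KO a, so they are not independent. With a different library left out, the edgeR unadjusted p reached 0.0915 for Trim25, 0.0577 for Oasl1 and 0.111 for Ifi47 (adjusted p = 0.432, 0.642 and 0.554).

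**Figure D4:**
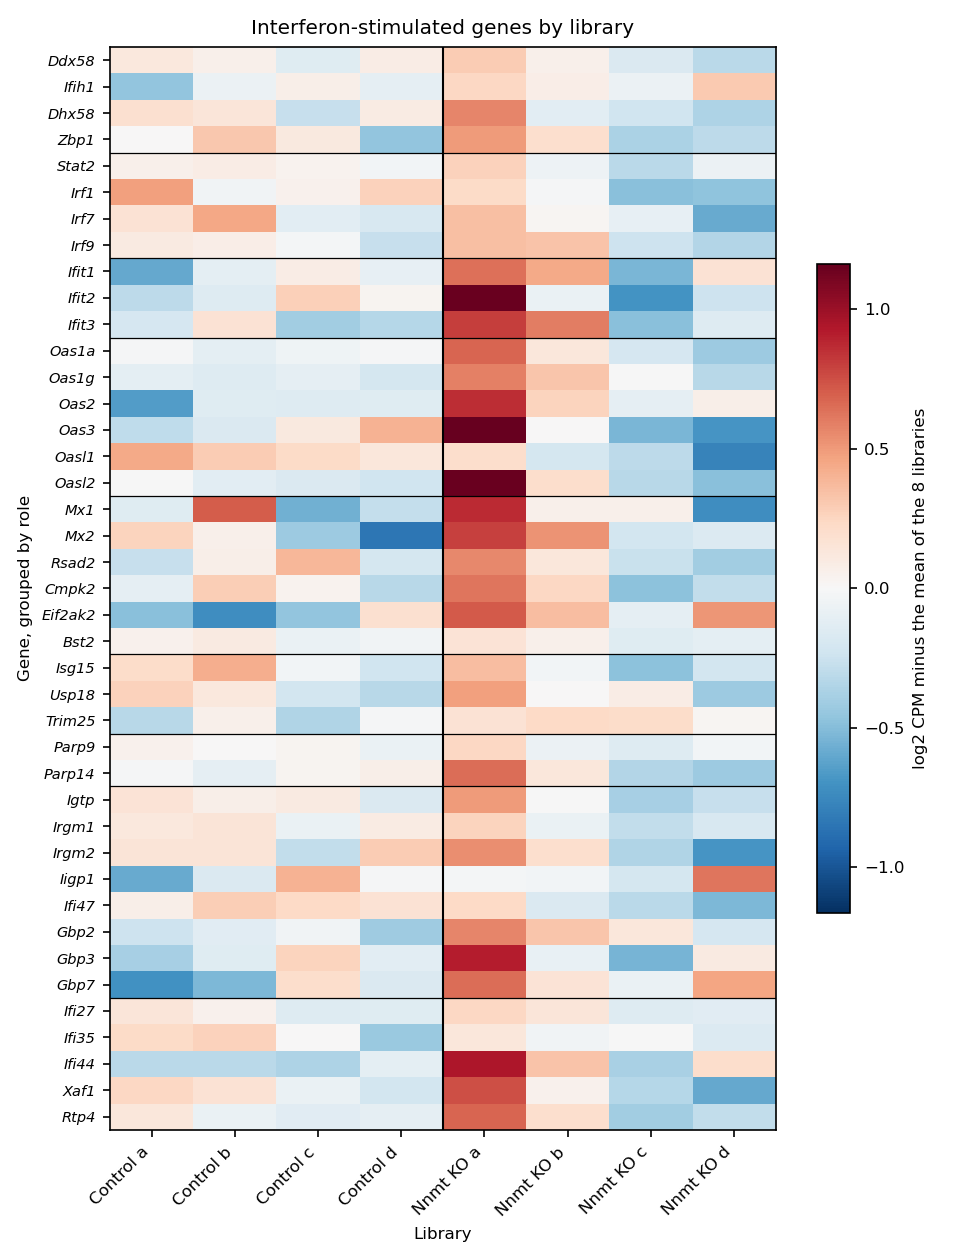
Each ISG (rows, grouped by role) in each of the 8 libraries (columns), as log2 CPM minus the mean of the 8 libraries, in red for above and blue for below. The column of Nnmt KO library a is red for nearly all genes, with the strongest colours for Ifit2, Oas3 and Oasl2, and the columns of KO libraries c and d are mostly blue.

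**Figure D5:**
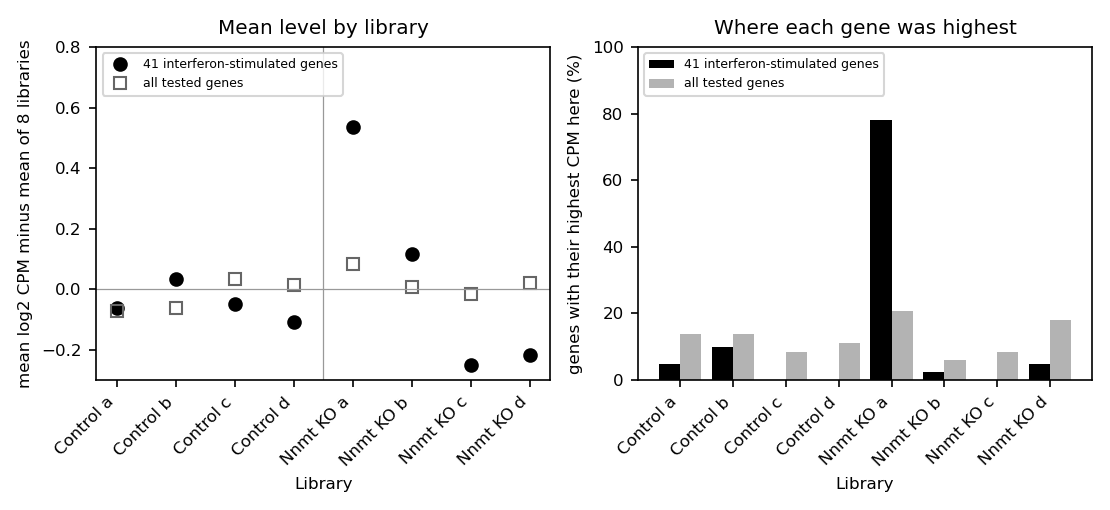
Left, the mean over 41 ISGs (filled) and over all tested genes (open) of log2 CPM minus the mean of the 8 libraries. Right, the percentage of ISGs (black) and of all tested genes (grey) whose highest CPM is in each library. KO library a stands at 78.0% of ISGs against 20.6% of all genes.

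The summed markers of some liver cell types were lowest or highest in KO library a. In bulk liver, fewer cells of a type and less RNA per cell cannot be told apart. The 6 hepatocyte markers, which include albumin, summed to 60307 CPM in KO library a, below the other KO libraries (94717 to 107927 CPM) and the controls (71842 to 109096 CPM). Albumin (Alb) alone made up most of that sum, at 48504.5 CPM in KO library a. Cps1, unlike Alb, Ttr and Apoa1, was not lowest of all 8 libraries there. The 7 Kupffer cell and macrophage markers found by symbol (Adgre1 is listed as Emr1 and left out) summed to 699 CPM in KO library a. They summed to 524 to 542 CPM in the other KO libraries and 354 to 673 CPM in control. Only 2 of these 7 were highest of all 8 libraries in KO library a, where 20.6% of all tested genes were highest. Control library d, at 673 CPM for those markers, had an ISG mean of 3.48, the lowest of the controls. Of the plasmacytoid dendritic cell markers, the broadly expressed Tcf4 made up most of the sum, which was 10.03 CPM in KO library a, 6.83 to 8.26 CPM in the other KO libraries and 5.41 to 8.24 CPM in control. The more specific Siglech was 1.25 CPM in KO library a and 0.418 to 0.860 CPM in all other libraries. Of the 4 plasmacytoid dendritic cell markers, 2, Siglech among them, were highest of all 8 libraries in KO library a. Neutrophil markers summed to 13.6 CPM in KO library a and 12.9 CPM in control library d, and to 4.73 to 7.97 CPM elsewhere, with the defining marker Ly6g at 0 in every library. The part of these cell markers in the ISG values was not tested.

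Of 8 T and NK cell markers, 3 were higher in Nnmt KO at an edgeR unadjusted p under 0.05, beside 5.45% of all tested genes. None was lower at that threshold, beside 7.13%, and 2 had a log2 fold change below 0. Cd8a (1.44), Cd3g (1.17) and Gzma (1.26 on the log2 scale) were higher without overlap, as 3.34% of all tested genes were. The adjusted p-values of these 3 were 0.106, 0.194 and 0.171 by edgeR and 0.00349, 0.0428 and 0.0284 by DESeq2. The sum of all 8 ran from 4.90 to 6.96 CPM in KO and from 3.44 to 4.95 CPM in control, with overlap. Each marker thus stood at a low level. Of the 4 stellate cell markers, 3 were higher at an edgeR unadjusted p under 0.05 (background 5.45%) and none passed adjustment. They summed to 378 to 458 CPM in KO and 282 to 372 CPM in control. The 4 B cell markers summed to 1.70 to 2.43 CPM in KO and 1.09 to 1.65 CPM in control. Sinusoidal endothelial markers (152 to 175 CPM in KO and 123 to 237 CPM in control) and cholangiocyte markers (17.5 to 35.2 CPM in KO and at most 29.3 CPM in control) overlapped between genotypes. Their part in the ISG values was not tested.

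The interferon genes that were looked up were at or near the limit of detection. Of 9 ligand genes, Ifna1, Ifna2, Ifna4, Ifne, Ifnl2 and Ifnl3 had 0 counts in every library, where 3 counts correspond to at most 0.0418 CPM. Ifnb1 had 4 counts in KO library b alone, Ifng had 5 counts in KO library a alone, and Ifnk had 2 counts in control library a alone. None could be tested. With all libraries, none of 6 receptor genes and 9 JAK-STAT genes had an unadjusted p under 0.05. Their means in KO and control (SD, n = 4) were 41.7 ± 5.64 and 45.8 ± 2.39 CPM for Ifnar1, 38.8 ± 1.98 and 40.4 ± 3.67 CPM for Ifnar2, and 25.7 ± 4.10 and 26.8 ± 5.93 CPM for Ifngr1. Jak1 was at 116 ± 7.56 and 135 ± 20.2 CPM and Tyk2 at 27.9 ± 3.59 and 28.7 ± 3.12 CPM. Without KO library a, 1 of the 6 receptor genes had a log2 fold change above 0. Ifngr2 was then at −0.26 (edgeR unadjusted p = 0.0296, adjusted p = 0.309).

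Around these genes, a list of 101 further interferon pathway genes was examined, of which 88 were found by symbol and tested. Ifit1bl1 stood under another symbol (Gm14446; log2 fold change 0.61 ± 0.43 SE, edgeR unadjusted p = 0.180, adjusted p = 0.591) and is outside the 88. At an unadjusted p under 0.05, 5 were higher and 5 were lower, no more than the 12.6% of all tested genes, the median log2 fold change was 0.02, and none passed adjustment by edgeR. By DESeq2, 2 passed, beside 3.32% of all tested genes. Ifitm3, a membrane protein that blocks viral fusion, was lower at 236 ± 9.76 against 364 ± 67.6 CPM (SD, n = 4; log2 fold change −0.63 ± 0.14 SE; adjusted p = 0.0907 by edgeR and 0.00198 by DESeq2). Tor3a, an interferon-responsive torsin of the endoplasmic reticulum, was higher at 17.9 ± 2.71 against 11.4 ± 0.910 CPM (SD, n = 4; log2 fold change 0.65 ± 0.13 SE; adjusted p = 0.0725 by edgeR and 0.00117 by DESeq2). Neither overlapped between genotypes, and without KO library a their log2 fold changes were −0.65 and 0.62. Ifitm3 lies close to Irf7 on chromosome 7, where 8.71% of 241 neighbours had a lower log2 fold change than its own.

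The other pathway genes past the unadjusted threshold ran in both directions. Irf3 (−0.44) and the kinase Ikbke (−0.31), which act together below the nucleic acid sensors, were lower with no overlap between genotypes, as Parp10 (−0.49) and the chemokine Cxcl10 (−0.57) were with overlap. Tlr7 (0.72), the endosomal sensor of single-stranded RNA, was higher with overlap, and so were Ifi203 (0.66) and Gbp9 (0.45), while Gbp5 (0.66) was higher with none. With all libraries, the adjusted p-values of these genes by edgeR ran from 0.186 to 0.366. Without KO library a, Tlr7, Ifi203, Gbp9 and Gbp5 were at 0.49, 0.54, 0.30 and 0.56. Their edgeR unadjusted p then ran from 0.0518 to 0.128 and adjusted p from 0.381 to 0.527. Irf3, Ikbke, Parp10 and Cxcl10 were then at −0.33, −0.35, −0.63 and −0.78. Their edgeR unadjusted p ran from 0.000573 to 0.0128 and adjusted p from 0.0541 to 0.221. With all libraries, the 14 antigen presentation genes, class I genes H2-K1 and H2-D1 included, lay between −0.15 and 0.11 on the log2 scale. None had an unadjusted p under 0.05 in that fit. Without KO library a, 1 of the 14 was above 0, beside 49.7% of all tested genes, and their median was −0.14. Tap1 was then at −0.43 (edgeR unadjusted p = 0.0201, adjusted p = 0.266), and the others exceeded an unadjusted p of 0.05.

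By position, 24 of the 41 ISGs lay in 10 clusters with gaps under 1 Mb, on 15 chromosomes in all. With all libraries, the fold changes of the Oas2 to Oas1a cluster (4 of 4), the Ifit cluster (3 of 3) and the Gbp cluster (3 of 3) were above 0, but without KO library a 2 genes remained above 0 in each. Irgm1 and Ifi47 were both below 0, whereas Oasl1 and Oasl2 differed in sign. Genes in a cluster can share reads or regulation and are not independent of each other.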

How the data were processed

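Liver RNA of 4 Nnmt KO and 4 control mice had been sequenced as 1 library per animal. For alignment and quantification the authors named HISAT2, and the submitters' processing notes also list StringTie and the build mm10, without versions. They deposited whole-number counts per gene, not normalized, for 33212 genes, of which 12414 were at 0 in every library. Library kits differ between the sources (KAPA in the methods, NEBNext in the labels), and neither the annotation nor the use of strand in counting was given, so overlapping or near-identical genes may be split differently by another method. Column headers name the genotype alone, and no column was left out.

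From these counts, edgeR 4.0.16 in R 4.3.3 kept 15291 genes (filterByExpr, minimum count 10), scaled them by TMM and tested Nnmt KO against control with the quasi-likelihood test, with Benjamini-Hochberg adjustment over all tested genes. Standard errors are those implied by the F statistic, and 95% intervals use its degrees of freedom. DESeq2 1.42.0, which the study used, was an alternative, as were other scalings, no filter and leaving out each library. A prior count of 2 entered log2 CPM for mean levels. Libraries within a genotype differed by more than sampling noise. At these depths 3 counts, the limit that a count of 0 allows, stand for at most 0.0418 CPM, for counting error only. The fits were first tested on simulated data.

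The genes and lists were chosen with earlier results of these data known. Per-library values are given for ISGs with an unadjusted p under 0.05 or without overlap, and in each role group for the 2 of smallest p and the most abundant, and, of the pathway genes, 8 set by name, of which 1 is not reported here, and up to 10 of smallest p. Positions and exon lengths come from GENCODE M21 (GRCm38), and promoters from RefSeq (GRCm38.p6). Marker and pathway lists were examined in the same fit.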

Additional observations from a re-analysis of the deposited data

Results flagged for a closer look

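Among 48 groups of 4 libraries, 3 held 1 library distant from the rest of its group, and chance flags about 1 in 20. Nnmt KO library a had a TMM factor of 1.209, while those of KO libraries b to d lay between 0.952 and 0.977. The mean log2 CPM of the ISGs in KO library a was examined by the same rule and was not flagged. Oas2 in control library a was 1.266 CPM, against 1.80 to 1.81 CPM in the other controls. Ifi44 in control library d was 1.784 CPM, against 1.50 to 1.54 CPM in the other controls.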

How the results depend on the processing

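No ISG passed an adjusted p of 0.05 under any alternative, where edgeR counted 2 to 9 of 41 and DESeq2 8 at an unadjusted p under 0.05. Over all genes 8.08% (without control a) to 14.1% (without control c) had an unadjusted p under 0.05 in fits without 1 library. Leaving out 1 control library gave ISG counts of 2 (control a), 4 (control b) and 5 (control c and control d), against 8 with all. Leaving out 1 KO library gave 6 (KO a), 3 (KO b), 9 (KO c) and 7 (KO d). From 1 to 5 ISGs were without overlap, against 1 with all libraries. In those fits 9.45% (without control a) to 14.3% (without control d) of all genes did not overlap, against 8.16% with all libraries. The median log2 fold change of the ISGs ran from −0.10 (without KO a) to 0.20 (without KO d). With scaling by library size only, 3 were counted (9.4% of all genes) and 0 had no overlap (6.68% of all genes). The median log2 fold change of all genes moved to 0.07, and 35 of 41 ISGs were above 0, beside 60.8% of all genes. The mean log2 CPM of the ISGs in control libraries a to d was then 3.45, 3.43, 3.60 and 3.57. Eif2ak2 kept an unadjusted p under 0.05 in every fit, with adjusted p from 0.0651 to 0.533. With 1 library left out, the sign turned for 25 of 41 ISGs, 15 of them without KO library a, with −0.42 to 0.35 for Oas3. With library size only, Ddx58 was 0.030, Bst2 0.060 and Parp9 0.070. Parp9 was also 0.0039 with DESeq2's size factors, 0.0070 without a filter and 0.0040 by DESeq2. Of the ISGs given by library, log2 fold changes with 1 library left out ran from −0.17 to 0.038 for Ddx58, −0.30 to 0.011 for Irf7, −0.072 to 0.032 for Bst2, −0.089 to 0.046 for Parp9, −0.19 to 0.20 for Parp14, −0.036 to 0.36 for Iigp1, −0.017 to 0.14 for Ifi27 and −0.10 to 0.29 for Rtp4. The causes were not tested. No paired analysis was possible because the columns of the count table carry no mouse number.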
